A study of Homo sapiens with 9 samples.

Results

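The insulin-like growth factor (IGF) axis genes described here are 10 of the 36385 genes in the deposited table, taken by symbol: the ligands IGF1 and IGF2, the receptors IGF1R and IGF2R, and the binding proteins IGFBP2, IGFBP3, IGFBP4, IGFBP5, IGFBP6 and IGFBP7. They were measured by RNA-seq in MG-63, a line derived from a human osteosarcoma that often stands in for osteoblasts, on 3 surfaces with 3 libraries each. The surfaces were boronized Ti6Al4V with HA (HA), Ti6Al4V with TiB2, which is titanium diboride by its formula (TiB2), and plain Ti6Al4V, a titanium alloy used for implants (bare alloy). HA and TiB2 together are called the coated surfaces here. On every surface the cells spent 7 days with the osteogenic agents beta-glycerophosphate (10 mM), ascorbic acid (50 µg/mL) and dexamethasone (100 nM), so the bare alloy cells received them too. The labels leave the TiB2 libraries out of the study's final analysis. Separate cultures are not stated for the libraries of a surface, and p-values then reflect a spread that may be technical.

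IGF1 and IGF2 are secreted growth factors that signal through IGF1R, a receptor tyrosine kinase that recruits the insulin receptor substrates and the PI3K and AKT kinases. IGF2R, also the cation-independent mannose 6-phosphate receptor, has no kinase: it takes up IGF2 for breakdown and sorts lysosomal enzymes. IGFBP2 to IGFBP6 bind the ligands with high affinity outside the cell and hold them from, or deliver them to, the receptor, whereas IGFBP7 binds them weakly. Bone stores both ligands, and IGF signalling is known to support the growth and matrix production of osteoblasts.

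The sequences upstream of IGF1R, IGF2R and IGFBP3 are shown, for the receptor that was lower on both other surfaces than on bare alloy, its partner receptor and the most abundant binding protein. Each run is the 250 bases before the RefSeq start of the gene in GRCh38.p14, 5′ to 3′ on the strand of the gene. Capitals mark the GC box core GGGCGG, or CCGCCC where it lies on the opposite strand, and the TATA-like TATATA. The windows are chr15:98648289-98648538 on the plus strand for IGF1R, chr6:159968832-159969081 on the plus strand for IGF2R and chr7:45921273-45921522 on the minus strand for IGFBP3.
IGF1R: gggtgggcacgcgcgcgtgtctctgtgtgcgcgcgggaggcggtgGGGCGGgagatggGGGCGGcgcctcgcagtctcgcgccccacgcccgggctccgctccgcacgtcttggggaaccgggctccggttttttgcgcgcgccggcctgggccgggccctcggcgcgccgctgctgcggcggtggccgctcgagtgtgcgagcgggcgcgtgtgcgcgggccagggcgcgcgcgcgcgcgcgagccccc
IGF2R: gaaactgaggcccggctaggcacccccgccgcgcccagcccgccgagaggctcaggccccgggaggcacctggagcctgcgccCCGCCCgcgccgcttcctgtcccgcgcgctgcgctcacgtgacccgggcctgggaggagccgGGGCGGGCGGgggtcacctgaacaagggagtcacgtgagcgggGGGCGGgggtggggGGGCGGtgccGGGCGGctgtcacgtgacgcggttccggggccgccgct
IGFBP3: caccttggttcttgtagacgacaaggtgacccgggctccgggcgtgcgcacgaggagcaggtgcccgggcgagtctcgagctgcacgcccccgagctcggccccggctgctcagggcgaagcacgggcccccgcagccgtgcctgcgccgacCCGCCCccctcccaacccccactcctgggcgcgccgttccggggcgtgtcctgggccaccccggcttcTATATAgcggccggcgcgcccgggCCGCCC
RefSeq gave such a window for 8 of the 10 genes, leaving out IGF2 and IGFBP7. GC content was 81.2% before IGF1R and 79.2% before IGF2R, and 76.0% before IGFBP3, against a median of 58.0% over all RefSeq promoters. It was 61.2% before IGFBP6, whose RefSeq start lies 231 bases inside the deposited gene. GGGCGG, searched on both strands, occurred 2 times before IGF1R, 6 times before IGF2R, 2 times before IGFBP3 and 1 time before IGFBP6. A pair of the IGF2R matches overlap, and 42.3% of 27305 promoter windows of this length held it. The IGFBP3 window held TATATA from base -30, and the IGFBP4 window held TATAAA from base -29, counted from the start. TATATA occurred in 3.96% and TATAAA in 11.1% of all windows, on either strand. These matches describe letters and not binding.

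Depth was 60528871 to 72542556 counts per HA library, 62951461 to 63413815 per TiB2 library and 58464306 to 63122541 per bare alloy library. The limit set by a count of 0 is 3 counts, which is 0.0414 to 0.0513 CPM (counts scaled to library size), for counting error only. Replicates on HA lay further apart than on the other surfaces, with a median squared deviation 43.7 to 69.9 times the Poisson value on HA, 12.5 to 14.9 times on TiB2 and 11.9 to 16.3 times on bare alloy. A trend with GC content and transcript length took 13.7% of the deviation of HA replicate 2 from the mean profile and 7.71% of that of HA replicate 3, against 0.614% to 3.88% in the other 7 libraries. In bare alloy replicate 1, 4 unnamed chromosome 21 rows took 6.46% of the counts, against 0.0831% to 1.07% in the other 8 libraries. Markers of osteoblasts and mesenchymal cells (7 genes, collagen I, SPARC, VIM and FN1 among them) summed to 1009 to 1604 FPKM on HA, 1456 to 1558 on TiB2 and 2609 to 2993 on bare alloy, while RUNX2, one of the 7, was at 0.223 to 0.487 FPKM on HA, 0.394 to 0.494 on TiB2 and 0.245 to 0.283 on bare alloy and rose on TiB2 (0.67 on the log2 scale, edgeR adjusted p = 0.0373). The RUNX2 call was lost without any one of the TiB2 replicates, bare alloy replicate 2 or 3, or the filter on low counts. By limma with a pseudocount of 0.1 its adjusted p was 0.0749. Against bare alloy 0 of the 7 markers rose and 3 fell on HA, where 9.89% of all genes passed (edgeR adjusted p under 0.05). On TiB2 1 rose and 6 fell, where 25.1% of all genes passed. The HA call of COL1A1 was lost without any one of the bare alloy replicates, HA replicate 2 or 3, or the filter. That of SPARC was lost without bare alloy replicate 2. The labels call the line epithelial-like: EPCAM reached at most 0.472 FPKM and CDH1 at most 0.0834 FPKM, while the keratins KRT8, KRT18 and KRT19 were present on every surface. Of the 6 T cell markers, none was above 0 in HA replicates 1 and 2 or in bare alloy replicate 1. Their sum was 1.68 to 2.17 FPKM on TiB2, at most 0.159 FPKM on HA and at most 1.66 FPKM on bare alloy. Of the macrophage markers CD68 and CD14 were present while PTPRC reached at most 0.0594 FPKM. The endothelial markers summed to 1.5 to 1.61 FPKM on HA, 1.26 to 1.37 on TiB2 and 4.01 to 5.07 on bare alloy, a difference carried by CDH5, at 0.177 to 0.562 FPKM on HA, 0.44 to 0.594 on TiB2 and 3.26 to 4.23 on bare alloy. PECAM1 was at 0.928 to 1.22 FPKM on HA, 0.724 to 0.863 on TiB2 and 0.727 to 0.824 on bare alloy, and VWF was at most 0.0344 FPKM. The part of these differences in the results on IGF genes was not tested.

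Per transcript length, the axis in MG-63 cells was one of binding proteins and receptors with almost no ligand message. FPKM (fragments scaled to transcript length and depth), the deposited unit that allows genes to be compared, put IGFBP3 first on every surface at 71.1 ± 42.8 on HA, 97.4 ± 23.4 on TiB2 and 106 ± 27.1 on bare alloy (SD, n = 3 each). IGFBP7 followed at 17.9 ± 4.1 on HA, 20.7 ± 3.59 on TiB2 and 21.6 ± 4.5 on bare alloy, with no overlap with IGFBP3 or with the next gene on any surface. A middle group of IGFBP2, IGFBP4, IGFBP6 and IGF2R lay at 6.68 to 10.2 FPKM on HA, 8.37 to 10.7 on TiB2 and 9.01 to 13.2 on bare alloy, as means. Neighbours within this group overlapped, except IGF2R over IGFBP2 on bare alloy. IGF1R came below them, overlapping IGF2R on HA and apart from the middle group on TiB2 and bare alloy. IGFBP5, IGF2 and IGF1 closed the order, all with means under 1 FPKM.

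**Figure D1:**
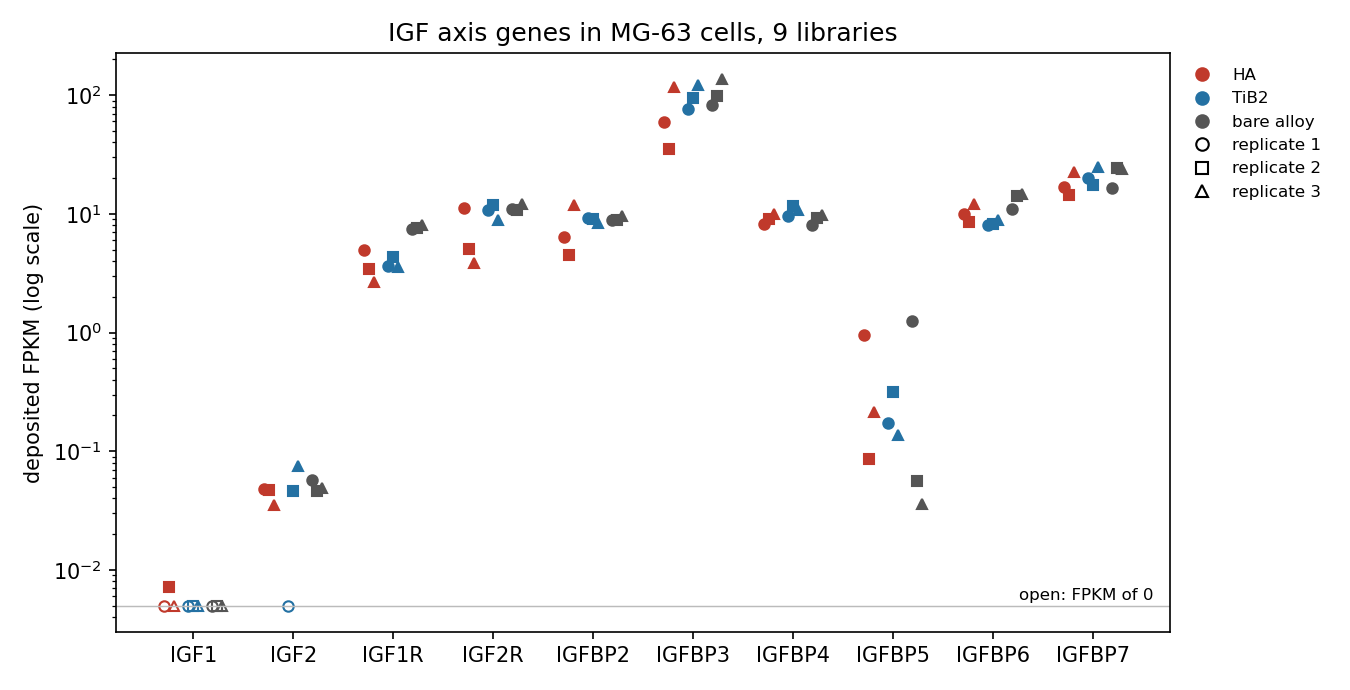
Deposited FPKM of the 10 genes on a log scale, one point per library, with HA, TiB2 and bare alloy side by side for each gene; libraries at 0 sit at the foot of the axis. IGFBP3 stands highest at 35.2 to 136 FPKM, and IGF1 and IGF2 lie at or under 0.0757 FPKM in every library.

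Across the axis, 9 of the 10 genes had enough counts to be tested. For HA against bare alloy, 1 of the 9 passed the threshold of 0.05 (IGF1R, lower), where 9.89% of 20117 genes did (5.02% higher and 4.88% lower). For TiB2 against bare alloy, 2 of the 9 passed (IGF1R and IGFBP6, both lower), where 25.1% of 20152 genes did (12.9% higher and 12.2% lower). For HA against TiB2, 0 of the 9 passed by edgeR, DESeq2 or limma, and 0 had an unadjusted p under 0.05 by edgeR, where 0.632% of 20086 genes passed (0.179% higher and 0.453% lower). The median log2 fold change of the 9 was -0.27, -0.16 and -0.17 in these comparisons, beside 0.02, 0.0 and 0.02 over all genes tested, and 8, 8 and 6 of the 9 had a value below 0. Against bare alloy the libraries did not overlap for 1 of the 9 on HA, lower, where 34.5% of all genes did not overlap and 17.4% were lower, and for 2 of the 9 on TiB2, both lower, where it was 42.1% and 21.2%. Between HA and TiB2 the libraries overlapped for all 9, and 18.1% of all genes did not overlap, 9.51% lower on HA.

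**Figure D2:**
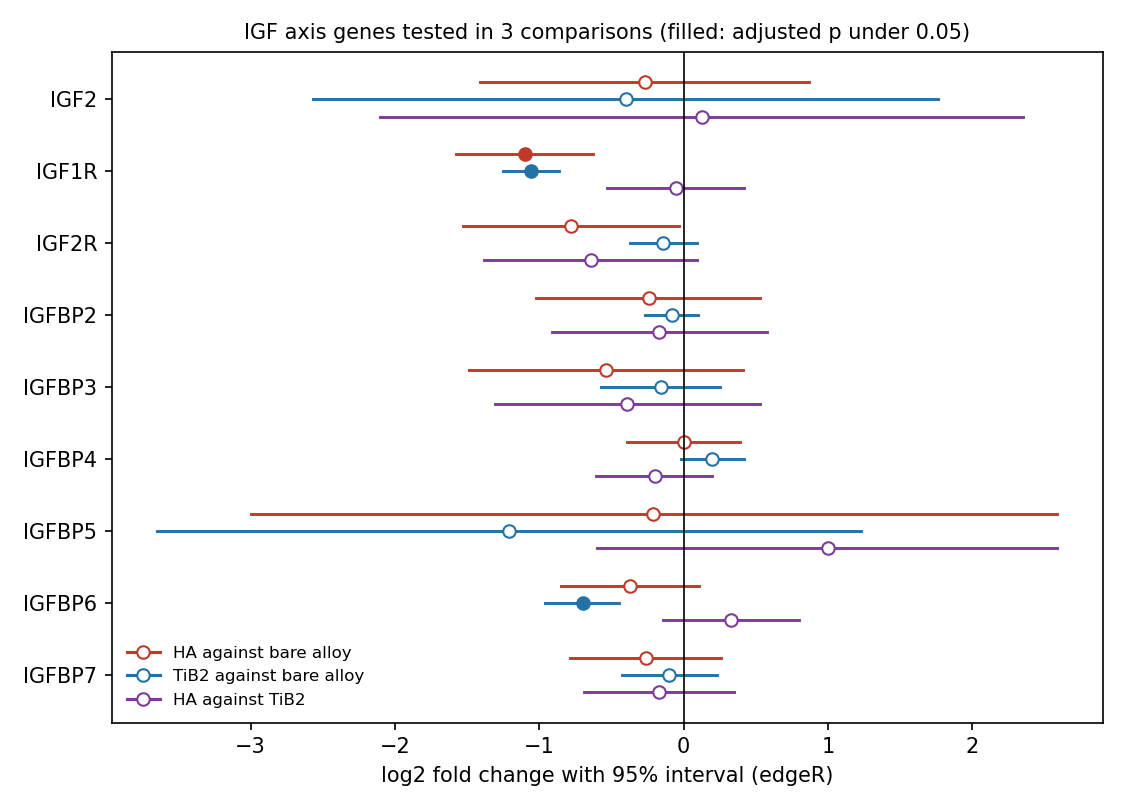
Log2 fold change with its 95% interval (edgeR) for the 9 genes tested, in the 3 comparisons; filled points have an adjusted p under 0.05. The filled points are IGF1R on HA and on TiB2 and IGFBP6 on TiB2, all below 0. Against bare alloy the intervals of IGFBP5 are the widest, from -3.0 to 2.59 on HA, and between HA and TiB2 that of IGF2 is, from -2.1 to 2.35.

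IGF1, the ligand behind most postnatal growth, was read in 1 of 9 libraries, with 4 counts in HA replicate 2 and 0 in the other 8. At this depth no difference between surfaces can be seen, and the gene was not tested. The opposite-strand gene HELLPAR overlaps it and had 37 to 286 counts. IGF2, the ligand that dominates fetal growth and is bound by both receptors, had 0.351, 0.343 and 0.303 CPM in HA replicates 1, 2 and 3, 0, 0.34 and 0.56 CPM in the TiB2 replicates and 0.474, 0.344 and 0.379 CPM in the bare alloy replicates. That is at most 36 counts in any library, and the surfaces overlapped. IGF2 differed by -0.27 ± 0.51 on the log2 scale for HA against bare alloy (SE, edgeR adjusted p = 0.775) and by -0.4 ± 0.96 for TiB2 against bare alloy (edgeR adjusted p = 0.81). Differences and fold changes are log2 values and their ± is the SE. The sign on TiB2 rests on its replicate 1: without that library the difference was 0.17.

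IGF1R, the signalling receptor, was lower on both coated surfaces than on bare alloy. Its gene spans chr15:98648539-98964530 on the plus strand, and its longest transcript has 12235 bases. IGF1R had 70.1, 47.5 and 42.9 CPM on HA, 52.5, 61.5 and 51.4 CPM on TiB2, and 119, 109 and 116 CPM on bare alloy, in replicates 1, 2 and 3. All 6 coated libraries lay below all 3 bare alloy libraries, and HA and TiB2 overlapped. Levels were 53.5 ± 14.6 CPM on HA, 55.1 ± 5.55 CPM on TiB2 and 115 ± 5.5 CPM on bare alloy (SD, n = 3 each). The log2 fold change was -1.1 ± 0.21 for HA against bare alloy, 2.15-fold lower on HA (edgeR adjusted p = 0.0136). For TiB2 against bare alloy it was -1.06 ± 0.09, 2.08-fold lower on TiB2 (edgeR adjusted p = 4.08e-05). These comparisons share the bare alloy libraries. Between HA and TiB2 the difference was -0.05, with a 95% interval of -0.53 to 0.42 (edgeR adjusted p = 0.936). In bulk RNA, fewer cells that carry a message and less of it per cell cannot be told apart.

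The TiB2 fall of IGF1R passed the threshold in every alternative run. The HA fall kept its sign throughout but not always its call: the edgeR adjusted p was 0.0619 without HA replicate 2 (log2 fold change -1.02), 0.0573 without bare alloy replicate 1 (-1.07), 0.0559 without bare alloy replicate 2 (-1.14) and 0.0654 without bare alloy replicate 3 (-1.1). Against bare alloy replicate 1 only it was 0.285 (-1.14). With an offset for GC content and length the HA value was -0.72 (edgeR adjusted p = 0.00552). With HA replicate 1 alone, the HA library with the weakest such trend, it was -0.7.

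IGF2R, the clearance receptor (chr6:159969082-160113507, plus strand, longest transcript 14044 bases), split the HA libraries. It had 257 CPM in HA replicate 1 but 115 and 101 CPM in HA replicates 2 and 3, against 252, 275 and 208 CPM on TiB2 and 282, 250.1 and 279 CPM on bare alloy. HA replicate 1 lay within the ranges of the other surfaces, and HA replicates 2 and 3 lay below all 6 of their libraries. Over all 3 HA libraries the difference from bare alloy was -0.78 ± 0.33, with a 95% interval of -1.53 to -0.03 before adjustment (edgeR adjusted p = 0.168), and that from TiB2 was -0.64 ± 0.33 (edgeR adjusted p = 0.456), and neither passed. Without HA replicate 1 they were -1.33 (edgeR adjusted p = 0.00235) and -1.2 (edgeR adjusted p = 0.0204), and with HA replicate 1 alone they were -0.06 and 0.07. On TiB2 IGF2R differed from bare alloy by -0.14 ± 0.1 (edgeR adjusted p = 0.367).

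Transcript length moved with the values in HA replicates 2 and 3. Among genes with a mean of at least 5 FPKM, the 367 with transcripts of 8000 bases or more had a median log2 CPM 0.01 above the bare alloy mean in HA replicate 1. Their median was -0.14 in HA replicate 2 and -0.62 in HA replicate 3. The 1423 genes with transcripts under 2000 bases had medians of 0.07, 0.24 and 0.82 in HA replicates 1, 2 and 3. IGF2R stood at -0.07, -1.23 and -1.42 on this scale and IGF1R at -0.71, -1.27 and -1.41, so both lay below the median of their length class in each HA library. The shorter IGFBP3 stood at -1.65 in HA replicate 2 and 0.32 in HA replicate 3 and IGFBP2 at -1.1 and 0.5, beside medians of 0.03 and 0.28 for their class of 2000 to 5000 bases. How far length accounts for these values was not tested beyond the offset. On TiB2 the medians of the longest class were -0.07 to 0.0.

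**Figure D3:**
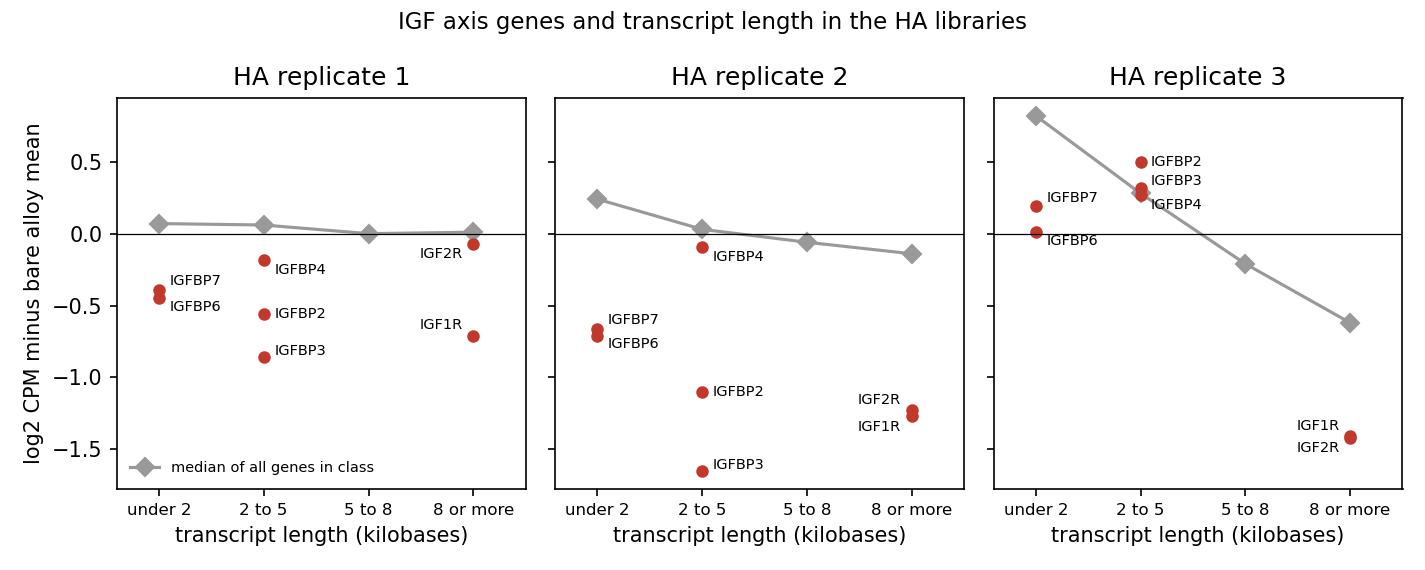
Log2 CPM minus the bare alloy mean in the 3 HA libraries, against the length class of the longest transcript; grey diamonds are medians of all genes in a class with a mean of at least 5 FPKM, red points the IGF genes. The grey line is nearly flat in HA replicate 1 and falls to -0.62 in HA replicate 3, and IGF1R and IGF2R lie under it in all 3 libraries.

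Among the binding proteins, IGFBP6 was lower on TiB2 than on bare alloy, and no binding protein passed the threshold on HA by edgeR or DESeq2 or had an unadjusted p under 0.05 there. IGFBP6 (chr12:53097436-53102345, plus strand) binds IGF2 in preference to IGF1. It had 13.8, 11.5 and 19 CPM on HA, 11.3, 11.2 and 12.4 CPM on TiB2 and 16.9, 19.5 and 20.5 CPM on bare alloy. All TiB2 libraries lay below all bare alloy libraries, while HA replicate 3 lay inside the bare alloy range. IGFBP6 fell 1.63-fold on TiB2, with a log2 fold change of -0.7 ± 0.11 (edgeR adjusted p = 0.00201), and this call stood in every alternative run. For HA against bare alloy the value was -0.37 ± 0.21 (edgeR adjusted p = 0.297), and for HA against TiB2 it was 0.33, with a 95% interval of -0.14 to 0.8 (edgeR adjusted p = 0.539).

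IGFBP3, the main carrier of IGFs in serum (chr7:45912245-45921272, minus strand), spread widely between replicates. It had 278, 161 and 627 CPM on HA, 362, 438 and 576 CPM on TiB2 and 436, 461 and 637 CPM on bare alloy. HA replicate 3 reached the bare alloy range and HA replicates 1 and 2 lay below every other library. The difference between HA and bare alloy was -0.54 ± 0.42 (edgeR adjusted p = 0.444), and that between TiB2 and bare alloy was -0.16 ± 0.18 (edgeR adjusted p = 0.587). Without HA replicate 3 the HA value was -1.22 (edgeR adjusted p = 0.0422). With HA replicate 1 alone it was -0.87.

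IGFBP2 and IGFBP5 are neighbours on chromosome 2, 7668 bases apart and on opposite strands. IGFBP2 (chr2:216632828-216664436, plus strand), a binding protein with an integrin-binding motif, followed the same split as IGFBP3 with 31.2, 21.4 and 65.1 CPM on HA. The other surfaces were tight, with 46.1, 43.7 and 40.5 CPM on TiB2 and 47.8, 43.3 and 46.8 CPM on bare alloy. HA replicate 3 was the highest of the 9 libraries and HA replicates 1 and 2 the lowest. The difference was -0.24 ± 0.34 for HA against bare alloy (edgeR adjusted p = 0.687) and -0.08 ± 0.08 for TiB2 against bare alloy (edgeR adjusted p = 0.518). Without HA replicate 3 it was -0.8 (edgeR adjusted p = 0.0422). Leaving out HA replicate 2 gave 0.05. With HA replicate 1 alone it was -0.55.

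IGFBP5 (chr2:216672105-216695549, minus strand), the binding protein that is stored in bone matrix, was low and varied widely between libraries. It had 394, 36 and 108 counts on HA, 75, 136 and 60 counts on TiB2 and 503, 24 and 15 counts on bare alloy. In CPM these are 6.28, 0.561 and 1.63 on HA, 1.18, 2.1 and 0.934 on TiB2 and 9.16, 0.375 and 0.247 on bare alloy, so bare alloy held both the highest and the lowest library. IGFBP5 differed by -0.21 ± 1.24 for HA against bare alloy (edgeR adjusted p = 0.937) and by -1.21 ± 1.09 for TiB2 against bare alloy (edgeR adjusted p = 0.472). Without bare alloy replicate 1 the sign turned, to 3.17 on HA (edgeR adjusted p = 0.109) and to 2.16 on TiB2 (edgeR adjusted p = 0.0127). Bare alloy replicate 1 is also the library with 6.46% of its counts in the unnamed chromosome 21 rows. For HA against TiB2 the value was 1.0 ± 0.71 (edgeR adjusted p = 0.582), turning to -0.38 without HA replicate 1.

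IGFBP4 and IGFBP7 passed the threshold in no comparison. IGFBP4 (chr17:40443450-40457725, plus strand), an inhibitor of IGF action that osteoblasts secrete, had 18.7, 19.8 and 25.5 CPM on HA, 21.9, 26.4 and 24.6 CPM on TiB2 and 20.5, 20.9 and 22.1 CPM on bare alloy. The surfaces overlapped, and the 95% interval of the log2 difference was -0.39 to 0.39 for HA against bare alloy and -0.02 to 0.42 for TiB2 against bare alloy (edgeR adjusted p = 0.999 and 0.176). IGFBP7 (chr4:57030773-57110385, minus strand), the low-affinity member, had 33.3, 27.6 and 50.1 CPM on HA, 40.4, 34.4 and 48.9 CPM on TiB2 and 36.3, 48.7 and 47.4 CPM on bare alloy. Its differences were -0.26 ± 0.23 on HA (edgeR adjusted p = 0.5) and -0.1 ± 0.15 on TiB2 (edgeR adjusted p = 0.682) against bare alloy. POLR2B overlaps IGFBP7 on the opposite strand with 5303 to 10202 counts, and since the sources used here do not give strand use in counting, the split of reads between these genes is uncertain.

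**Figure D4:**
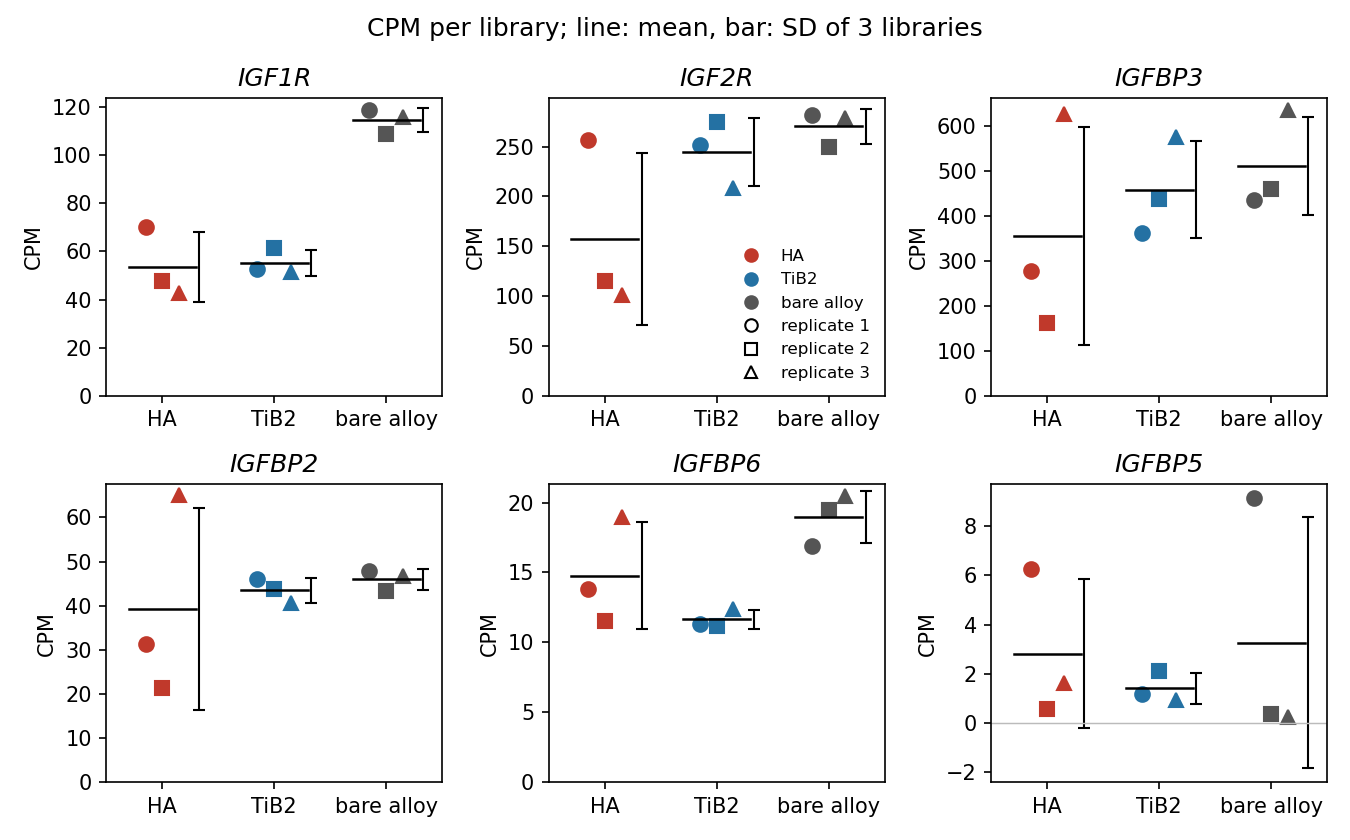
CPM of 6 of the genes in each library, by surface from HA to TiB2 to bare alloy, with the mean as a line and the SD of 3 libraries as a bar. IGF1R is lower in all 6 coated libraries than in the 3 bare alloy libraries (at most 70.1 against at least 109 CPM), while IGF2R, IGFBP2 and IGFBP3 spread over the HA libraries.

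Of the summed FPKM of the 6 binding proteins, IGFBP3 held 58.4% ± 9.27 on HA, 66.1% ± 4.1 on TiB2 and 66.0% ± 3.52 on bare alloy (SD, n = 3 each). IGFBP7 held 16.4% ± 3.6 on HA, 14.3% ± 1.94 on TiB2 and 13.6% ± 1.92 on bare alloy. The share of IGFBP6 was 9.55% ± 2.48 on HA, 5.8% ± 0.708 on TiB2 and 8.39% ± 0.705 on bare alloy, and its TiB2 range of 5.09% to 6.51% lay below the bare alloy range of 7.65% to 9.05%. The share of IGFBP4 was 8.79% ± 3.49 on HA, 7.42% ± 1.12 on TiB2 and 5.76% ± 0.666 on bare alloy. The sum itself was 102, 71.7 and 175 FPKM on HA, 123, 141 and 175 FPKM on TiB2 and 129, 154 and 194 FPKM on bare alloy, and overlapped between surfaces. Without IGFBP3 it was 36.5 to 56.5 FPKM on HA, 46.8 to 52.8 on TiB2 and 45.4 to 58.1 on bare alloy.

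By the profile over all 9 libraries, the genes nearest to IGF1R among 6230 genes with a mean of at least 5 FPKM were CAMK1D and TSPAN9, each with a root mean square difference of 0.1 in centred log2 CPM. The transcripts of CAMK1D and TSPAN9 have 8153 and 4323 bases. CAMK1D had 57.5 to 90.8 CPM on HA, 67.7 to 73.0 on TiB2 and 128 to 147 on bare alloy. Nearest to IGF2R were ABCA2 (0.07) and TLN1 (0.1), with transcripts of 8154 and 8823 bases, and ABCA2 had 97.0, 41.2 and 33.7 CPM in HA replicates 1, 2 and 3. Nearest to IGFBP3 were YPEL3 (0.18) and CD14 (0.24), with transcripts of 1941 and 1886 bases. All these profiles share libraries and depth.

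The genes around the axis were described through 7 lists, whose changes are also on the log2 scale. Of the proteases that cut binding proteins and their inhibitors, 10 of 11 were tested, and 1 rose and 1 fell on HA, where 9.89% of all genes passed, and 2 rose and 3 fell on TiB2, where 25.1% did, against bare alloy. The list medians were -0.11 on HA and 0.16 on TiB2. HTRA1, a secreted serine protease that cleaves binding proteins, had 65.2, 49.1 and 84.5 CPM on HA, 72.2, 60.0 and 66.2 CPM on TiB2 and 168, 151 and 154 CPM on bare alloy. All 6 coated libraries lay below the bare alloy libraries, with a log2 fold change of -1.26 ± 0.21 on HA (edgeR adjusted p = 0.00723) and -1.26 ± 0.08 on TiB2 (edgeR adjusted p = 1.34e-05). STC1, a secreted glycoprotein of the stanniocalcin family that inhibits the IGFBP4 protease PAPPA, is named after its values were seen, since it lay under 1 FPKM. It had 2.74, 2.99 and 3.24 CPM on HA, 0.71, 0.386 and 0.669 CPM on TiB2 and 0.401, 0.485 and 0.428 CPM on bare alloy. STC1 rose by 2.76 ± 0.28 on the log2 scale on HA against bare alloy (edgeR adjusted p = 0.00105) and by 2.33 ± 0.32 on HA against TiB2 (edgeR adjusted p = 0.0118), the 1 gene of this list past the threshold there, where 0.632% of all genes passed. The second of these calls was lost without HA replicate 2, TiB2 replicate 1, TiB2 replicate 3 or the filter on low counts (edgeR adjusted p = 0.0921). Each of these runs left 0 genes of the list past the threshold. With HA replicate 1 alone the value was 2.21.

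On TiB2, the related STC2 rose by 0.4 ± 0.11 and the metalloprotease ADAM9 fell by 0.37 ± 0.08 (edgeR adjusted p = 0.0242 and 0.00665). The aspartic protease CTSD fell by 0.3 ± 0.08 (edgeR adjusted p = 0.0175), and ADAM12, named after its values were seen, rose by 0.27 ± 0.08 (edgeR adjusted p = 0.0297). The STC2 call was lost without bare alloy replicate 1 (edgeR adjusted p = 0.0602) or 2 (0.0902) or TiB2 replicate 2 (0.0684). It was also lost without the filter on low counts (0.0566). That of CTSD was lost without bare alloy replicate 1 (edgeR adjusted p = 0.0595) or 3 (0.0768) or TiB2 replicate 3 (0.057). By limma with a pseudocount of 0.1 the adjusted p of CTSD was 0.0523. The ADAM12 call was kept without TiB2 replicate 3, but lost without TiB2 replicate 1 (edgeR adjusted p = 0.0813) or 2 (0.0978), without bare alloy replicate 1 (0.0803), 2 (0.109) or 3 (0.0575) and without the filter (0.0551). Of the other proteins with an IGF-binding domain or partner role, KAZALD1 had 23.3 ± 1.39 CPM on TiB2 and 33.5 ± 3.38 CPM on bare alloy, a fall of 0.52 ± 0.1 (edgeR adjusted p = 0.00438). It was the 1 of 3 tested that passed on TiB2 (list median 0.05), where 25.1% of all genes did. On HA 1 of 4 tested passed (list median 0.63), where 9.89% of all genes did, ESM1, also named after its values were seen, which had 1.69, 3.22 and 3.75 CPM on HA and 1.11, 0.986 and 0.56 CPM on bare alloy. ESM1 rose by 1.69 ± 0.39 (edgeR adjusted p = 0.0299), and 0 genes of this list rose without HA replicate 2, HA replicate 3, any one of the bare alloy replicates or the filter on low counts (edgeR adjusted p = 0.0689).

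Of the adaptors and brakes of the receptor, 10 of 11 were tested against bare alloy. On HA, where 9.89% of all genes passed by edgeR and 3333 of 18559 by DESeq2, 0 passed by either (list median -0.36). An unadjusted edgeR p under 0.05 was seen for 3, and its share over all genes was not counted. By edgeR on HA, 1 fell with the offset for GC content and length, 1 with all 9 libraries in one fit and 2 without HA replicate 1. Over all genes 3420 of 20117, 3518 of 21213 and 4185 of 21075 passed in these runs. On TiB2, where 25.1% of all genes passed, 1 rose and 3 fell (list median 0.04). IRS1, the adaptor that couples IGF1R to PI3K, had 92.0, 93.0 and 79.2 CPM on TiB2 and 139.6, 117 and 125 CPM on bare alloy, with no overlap. IRS1 fell by 0.53 ± 0.09 on TiB2 (edgeR adjusted p = 0.00261), and its HA values of 117, 77.2 and 53.7 CPM spread as those of the receptors did. PTPN1, a phosphatase that acts on insulin and IGF receptors, rose by 0.41 ± 0.08 on TiB2 (edgeR adjusted p = 0.00516). GRB10, an adaptor that dampens the receptor, fell by 0.27 ± 0.08 (edgeR adjusted p = 0.0294), a call lost without TiB2 replicate 1 (0.0729) or 3 (0.0835) or bare alloy replicate 2 (0.0778) or 3 (0.0891). GAB1, under 1 FPKM and named after its values were seen, fell by 0.56 ± 0.16 (edgeR adjusted p = 0.0341). Its call was lost without TiB2 replicate 1 (edgeR adjusted p = 0.0898) or 2 (0.0988), without bare alloy replicate 1 (0.0906) or 2 (0.0932), without the filter on low counts (0.0629) and with the offset for GC content and length (0.0537). By limma with a pseudocount of 1 and 0.1 the adjusted p was 0.0817 and 0.138 for GAB1 and 0.204 and 0.195 for GRB10.

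All 23 genes of the PI3K, AKT and mTOR list were tested. Against bare alloy 0 rose and 3 fell on HA (list median -0.31), where 9.89% of all genes passed, and 4 rose and 6 fell on TiB2 (list median -0.04), where 25.1% did. For HA against TiB2, where 0.632% of all genes passed by edgeR, 0 passed by edgeR or DESeq2. An unadjusted edgeR p under 0.05 was seen for 5, and its share over all genes was not counted. Without HA replicate 1, 3 were lower on HA than on TiB2 by edgeR. Over all genes 49 to 1224 passed in that comparison with a library left out. FOXO1, a transcription factor held out of the nucleus by AKT, had 3.35, 2.31 and 3.68 CPM on HA, 3.83, 5.99 and 4.79 CPM on TiB2 and 11.1, 11.2 and 10.9 CPM on bare alloy. FOXO1 was lower in all 6 coated libraries, with a log2 fold change of -1.84 ± 0.23 on HA (edgeR adjusted p = 0.00261) and -1.18 ± 0.18 on TiB2 (edgeR adjusted p = 0.00128). PIK3R1, the regulatory subunit p85 alpha of PI3K, had 54.1, 72.5 and 45.0 CPM on HA, 48.9, 44.7 and 45.2 CPM on TiB2 and 104, 118 and 116 CPM on bare alloy. It too did not overlap between coated and bare surfaces, with a log2 fold change of -0.99 ± 0.2 on HA (edgeR adjusted p = 0.0174) and -1.29 ± 0.08 on TiB2 (edgeR adjusted p = 6.62e-06). FOXO4, of the same family as FOXO1, fell by 0.99 ± 0.19 on HA (edgeR adjusted p = 0.013) and by 0.67 ± 0.1 on TiB2 (edgeR adjusted p = 0.000996). PIK3CD, a catalytic subunit known from white blood cells, rose by 0.57 ± 0.12 on TiB2 (edgeR adjusted p = 0.00694), and T cell markers summed to at most 2.17 FPKM on TiB2 and 1.66 FPKM on bare alloy, whose part in this rise was not tested. On HA the count fell to 1 without any one of the bare alloy replicates: FOXO4 then had an edgeR adjusted p of 0.0501, 0.0759 or 0.0628 and PIK3R1 of 0.0548, 0.0866 or 0.0863 without bare alloy replicate 1, 2 or 3. Without HA replicate 1 the HA count was 7 lower and 1 higher, where 4185 of 21075 genes passed. With the offset for GC content and length it was 3 lower and 4 higher, where 3420 of 20117 genes passed. By DESeq2 it was 5 lower and 1 higher, where 3333 of 18559 genes passed.

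Of the mannose 6-phosphate pathway and the lysosomal proteins that IGF2R and its partner receptor sort, 10 of 10 were tested, with 0 higher and 2 lower on HA (list median -0.53), where 9.89% of all genes passed, and 2 higher and 5 lower on TiB2 (list median -0.28), where 25.1% did. CTSB, a cysteine protease of lysosomes, had 2363, 1481 and 2289.8 CPM on HA, 2648, 2823 and 2967 CPM on TiB2 and 4138, 3625 and 3975 CPM on bare alloy. All coated libraries lay below the bare alloy libraries, with a log2 fold change of -0.95 ± 0.23 on HA (edgeR adjusted p = 0.0354) and -0.48 ± 0.1 on TiB2 (edgeR adjusted p = 0.00722). HEXA, a subunit of the hexosaminidase that degrades gangliosides, had a log2 fold change of -0.79 ± 0.16 on HA (edgeR adjusted p = 0.0181) and -0.56 ± 0.06 on TiB2 (edgeR adjusted p = 0.000207). Both HA calls were lost without any one of the bare alloy replicates, with an edgeR adjusted p of 0.105, 0.114 and 0.142 for CTSB and 0.0829, 0.102 and 0.1 for HEXA without replicates 1, 2 and 3. Without HA replicate 1 the HA count was 4 lower and 1 higher, where 4185 of 21075 genes passed. The CTSB call was also lost without HA replicate 2 (0.0594) and without the filter on low counts (0.0924), and that of HEXA with the offset for GC content and length (log2 fold change -0.52, edgeR adjusted p = 0.0891). On TiB2, GNPTG, a subunit of the enzyme that makes the mannose 6-phosphate tag, fell by 0.58 ± 0.1 (edgeR adjusted p = 0.00212). CTSL, another lysosomal cysteine protease, rose by 0.34 ± 0.09 on TiB2 (edgeR adjusted p = 0.0228), a call lost without TiB2 replicate 1 (0.0772) or 3 (0.0839) or bare alloy replicate 2 (0.0672) or 3 (0.0947).

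The other receptors of the family were INSR, the insulin receptor that forms hybrids with IGF1R, and M6PR, the cation-dependent mannose 6-phosphate receptor. On HA, where 9.89% of all genes passed by edgeR, 0 of these passed by edgeR. By DESeq2 1 rose and 1 fell, where 3333 of 18559 genes passed. An unadjusted edgeR p under 0.05 was seen for 2, and its share over all genes was not counted. On TiB2 INSR had 40.8 ± 3.72 CPM against 50.6 ± 2.79 CPM on bare alloy (SD, n = 3 each), a fall of 0.31 ± 0.09 (edgeR adjusted p = 0.0326). The INSR call was lost without TiB2 replicate 1 (0.0995) or 3 (0.0816), bare alloy replicate 2 (0.0669) or 3 (0.121) or the filter on low counts (0.0694). By limma with a pseudocount of 1 and 0.1 its adjusted p was 0.188 and 0.18. M6PR had 99.8, 92.9 and 96.9 CPM on TiB2 and 78.2, 76.7 and 78.6 CPM on bare alloy, a rise of 0.31 ± 0.06 (edgeR adjusted p = 0.00634). Of the RNA-binding and RNA partners of IGF2, 4 of 5 were tested on HA (list median 0.06). By edgeR 0 passed, where 9.89% of all genes did, and by DESeq2 1 rose, where 3333 of 18559 genes passed. An unadjusted edgeR p under 0.05 was seen for 2, again without a share over all genes. On TiB2 5 of 5 were tested, and 2 rose and 1 fell (list median 0.47), where 25.1% of all genes passed. IGF2BP1 and IGF2BP2, proteins that bind the IGF2 message, rose by 0.47 ± 0.12 and 0.42 ± 0.07 (edgeR adjusted p = 0.0198 and 0.00238). IGF2BP3, of the same family, fell by 0.49 ± 0.07, with 67.1, 61.1 and 68.0 CPM on TiB2 and 87.0, 97.2 and 90.3 CPM on bare alloy (edgeR adjusted p = 0.0015). The IGF2BP1 call was lost without TiB2 replicate 2 (0.0746) or 3 (0.0578) or bare alloy replicate 3 (0.0785). By limma with a pseudocount of 1 and 0.1 its adjusted p was 0.05 and 0.0598.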

How the data were processed

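The authors deposited raw counts and FPKM per gene and library in a joint file, on GRCh38. The submitters' processing notes name cutadapt 2.10, HISAT2 2.2.1, StringTie 2.1.4, featureCounts 2.0.1 and limma, without the step each did. The deposited FPKM values served for levels between genes and for limma, and the deposited counts for the tests. The 10 genes and the lists around them were chosen with earlier results of these data known.

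Each comparison used its own 6 libraries: edgeR filterByExpr, TMM scaling, quasi-likelihood test (edgeR 4.0.16, R 4.3.3), two-sided, Benjamini-Hochberg over all genes tested, threshold 0.05. The design foresaw this test for counts. CPM values were scaled by TMM over all 9 libraries. Transcript length and GC content came from GENCODE release 29. Alternatives used DESeq2 1.42.0 and limma 3.58.1, other filters, a replicate block, all 9 libraries in one fit, an offset for GC content and length, and each library left out. Plots and result tables were made in Python 3.11.15 with matplotlib 3.10.9, pandas 2.3.3 and numpy 2.4.6. In simulated data the edgeR step recovered 14% of 2-fold changes for HA against bare alloy, 48% for TiB2 against bare alloy and 20% for HA against TiB2. Of 4-fold changes it recovered 63%, 76% and 65%, so genes that did not pass may still differ.

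All 10 genes are named in every comparison. Of each list, at most 4 genes past the threshold are named, largest change first, with a mean of at least 1 FPKM in the higher group, and any exception is marked. The nearest profiles are given for the 3 genes of the axis with a mean of at least 5 FPKM that varied most, 2 genes each. INSRR was not analysed here.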

Additional observations from a re-analysis of the deposited data

How the results depend on the processing

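The IGF1R and IGFBP6 calls on TiB2 held in all alternatives run. The counts of genes past the threshold moved more. For HA against bare alloy the count over the axis was 1, but 0 against bare alloy replicate 1 only (assumed to vary like the HA libraries), 3 with HA replicate 1 only (an alternative chosen after seeing the data, in which the lone HA library is assumed to vary like the bare alloy libraries, whose spread is the smaller) and 0 to 3 with a library left out. The count over all genes was 1990, but 3333 by DESeq2, 1093 without a filter, 950 at a mean FPKM of at least 5 (fewer genes tested), 3518 with all 9 libraries in one fit, 3420 with the GC and length offset, 286 against bare alloy replicate 1 only and 598 to 4185 with a library left out. For TiB2 against bare alloy the count over the axis was 2, and 2 to 3 with a library left out. Over all genes it was 5059, but 2594 at a mean FPKM of at least 5 and 2132 with all 9 libraries in one fit. For HA against TiB2 the count over the axis was 0, and 0 to 1 with a library left out. Over all genes it was 127, but 490 by DESeq2, 35 without a filter, 13 at a mean FPKM of at least 5, 67 with all 9 libraries in one fit and 49 to 1224 with a library left out. Of the 21 list genes that the naming rule took on TiB2, 14 lost their call with all 9 libraries in one fit, and so did ADAM12 and GAB1, which were named beside them. The causes were not tested, other than where fewer genes or libraries enter.

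Differences that turned sign had not passed. For HA against bare alloy these were IGF2 (0.07 with the offset), IGFBP4 (-0.12 at a mean FPKM of at least 5, -0.17 with HA replicate 1 only), IGFBP5 (0.02 and 0.37 by limma with a pseudocount of 1 and 0.1, 0.96 with HA replicate 1 only) and IGFBP7 (0.04 against bare alloy replicate 1 only). For HA against TiB2 they were IGF1R (0.27 with the offset, 0.34 with HA replicate 1 only), IGF2R (0.07 with HA replicate 1 only), IGFBP2 (0.08 with the offset) and IGFBP4 (0.03 with the offset). With a library left out, HA against bare alloy ran from -0.8 to 0.05 for IGFBP2, -0.13 to 0.09 for IGFBP4 and -1.57 to 3.17 for IGFBP5. TiB2 against bare alloy ran from -1.22 to 0.17 for IGF2, -0.36 to 0.03 for IGFBP3, -1.76 to 2.16 for IGFBP5 and -0.24 to 0.01 for IGFBP7. HA against TiB2 ran from -0.45 to 0.94 for IGF2, -0.3 to 0.08 for IGF1R, -0.74 to 0.12 for IGFBP2 and -0.38 to 1.49 for IGFBP5.

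Replicate numbers are shared by the surfaces, but over all genes kept same-numbered libraries did not deviate together (correlation -0.07 to 0.04). Such a correlation cannot show whether single genes follow the number. IGFBP3 and IGFBP6 were highest in replicate 3 on every surface, and no other gene of the axis peaked in the same number on all surfaces. In HA against bare alloy 2 of 6 libraries correlated best with their own number, and 0 of 6 in the other comparisons. With a replicate block the axis counts were 1, 2 and 0 and the counts over all genes 1357, 3625 and 195 for HA against bare alloy, TiB2 against bare alloy and HA against TiB2. The block ended the HA calls of CTSB (edgeR adjusted p = 0.0507) and ESM1 (0.0684), and the TiB2 calls of ADAM12, CTSD, CTSL, GAB1, GRB10, IGF2BP1, INSR, RUNX2 and STC2 among the genes named (0.0505 to 0.107). Under the block IGFBP4 was -0.01 and IGFBP5 0.78 for HA against bare alloy, and IGFBP5 0.56 for TiB2 against bare alloy. Depth limits IGF1 and IGF2, and the spread between libraries limits IGFBP5.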
